A study of Mus musculus with 394 samples.

Results

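The genes described here are the neuronal nicotinic acetylcholine receptor subunits *Chrna3*, *Chrna4*, *Chrna5*, *Chrna6*, *Chrna7*, *Chrnb2*, *Chrnb3* and *Chrnb4*, taken by symbol from each count table. They are 8 of 55487 genes in the full-length table and 8 of 48531 genes in the UMI table, with 1 row for each symbol in each table. RiboTag mice carry a Cre-dependent HA tag on the ribosomal protein eL22, and in Cre+ animals (DAT-IRES-Cre, RiboTag) Cre is driven from the dopamine transporter locus, so that anti-HA immunoprecipitates (IP) draw ribosomes from dopamine neurons and Input is the lysate before precipitation. Cre- animals carry RiboTag without Cre, so their IPs give the nonspecific background. Cells without the dopamine transporter are not tagged in this model.

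The full-length libraries were all from Cre+ mice aged 10 to 14 months, with 3 IPs and 3 Inputs each from the substantia nigra pars compacta (SNc), the ventral tegmental area (VTA) and the substantia nigra pars reticulata (SNr), where dendrites and scattered cell bodies of dopamine neurons lie among GABAergic neurons. The UMI libraries of the same 3 regions came from 6 Cre- and 4 Cre+ samples in each fraction, also at 10 to 14 months. Ventral midbrain synaptosomes, which are resealed nerve endings and attached dendritic fragments, gave 6 Cre- and 8 Cre+ IPs beside 12 and 16 Inputs at 10 to 14 months. Striatal synaptosomes of the same ages gave 4 IPs and 12 Inputs of each genotype, bulk striatum gave 34 IPs and 35 Inputs of each genotype from P0 to 14 months, and 12 samples of fluorescence-sorted synaptosomes stood beside 12 of small particles sorted without regard to fluorescence. In each of these sets 6 striatal samples were from DAT-Cre mice given an AAV for EGFP and 3 striatal and 3 cortical samples from VGLUT1-VENUS mice, at P90 to P150. The labels do not name mice. An Input is part of the lysate that its IP was made from, the 3 midbrain regions can come from the same animals, and synaptosome Inputs outnumber the IPs and may include repeats of 1 preparation. All were fitted as separate samples, so that p-values measure the spread between samples, part of which may be technical. They can be too small where samples of the same group share an animal, and too large where the groups compared share animals.

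Nicotinic receptors are pentameric cation channels opened by acetylcholine and by nicotine. The α2 to α6 subunits with a β2 or β4 partner make heteromeric receptors whose binding sites lie at the interface of an α and a neighbouring subunit, α7 can form receptors on its own, and α5 and β3 are accessory subunits that take a structural place without completing a classical binding site. In midbrain dopamine neurons, receptors that hold α4β2, with or without α6 and β3, are known on the cell body, the dendrites and the axon, where they regulate firing and dopamine release.

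The α subunits are defined by a pair of adjacent cysteines near the agonist site, and the coding bases around it are shown because they mark which members are α subunits and how alike they are. In each line the capitals are the 2 cysteine codons, read 5′ to 3′ on the coding strand from the GRCm38 genome.
Chrna4: aggaagtatgaaTGCTGTgccgagatctat
Chrna6: atcaagtacaacTGCTGTgaagagatttac
Chrna3: atcaagtacaacTGCTGTgaggagatctac
Chrna7: aagttctatgaaTGCTGCaaagagccatac
Chrna5: cggacggacagcTGCTGCtggtacccctgc
These windows lie in coding exons, at chr2:181029266-181029295 (exon 5 of 6, minus strand) for *Chrna4*, chr8:27407167-27407196 (exon 5 of 6, minus strand) for *Chrna6*, chr9:55015842-55015871 (exon 5 of 6, minus strand) for *Chrna3*, chr7:63106146-63106175 (exon 7 of 10, minus strand) for *Chrna7* and chr9:55004605-55004634 (exon 5 of 6, plus strand) for *Chrna5*. No in-frame pair of adjacent cysteine codons, each TGT or TGC, was found in *Chrnb2*, *Chrnb3* or *Chrnb4*, while 5355 of 21562 coding sequences (24.84%) hold at least 1.

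In GENCODE coordinates on GRCm38, 5 of the 8 genes sit in clusters. *Chrnb3* (ENSMUSG00000031492.13, chr8:27368711-27399730, plus strand) and *Chrna6* (ENSMUSG00000031491.10, chr8:27403212-27413944, minus strand) face each other across 3481 bases. *Chrna5* (ENSMUSG00000035594.10, chr9:54980880-55007779, plus strand), *Chrna3* (ENSMUSG00000032303.8, chr9:55010111-55026562, minus strand) and *Chrnb4* (ENSMUSG00000035200.7, chr9:55028154-55048779, minus strand) follow with 2331 and 1591 bases between them. *Chrna4* (ENSMUSG00000027577.14, chr2:181018380-181043546), *Chrna7* (ENSMUSG00000030525.8, chr7:63098692-63212569) and *Chrnb2* (ENSMUSG00000027950.7, chr3:89746195-89764632) lie alone on minus strands. Of the exon bases of *Chrnb2*, 1365 (16.29%) overlap *Adar* on the opposite strand, and the strand setting of the counting is not given in the sources used here, so that its values are less certain.

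The full-length libraries held 3059148 to 15762443 counts and the UMI libraries 1137 to 904478 UMIs (median 45306), so that members reached 959 CPM (counts per 1000000 counts of the library) in the former and often 0 to 3 UMIs per library in the latter. A list of 12 dopaminergic core genes, among them *Th* and *Slc6a3*, was higher in the IP than in the Input for 12 of 12 genes in SNc, VTA and SNr. The full-length IPs also held transcripts of other cells. The summed CPM of 5 GABAergic neuron markers was 1019 to 1536 in SNc IPs, 279 to 352 in VTA IPs and 804 to 1113 in SNr IPs. That of 5 oligodendrocyte markers was 1590 to 2657 in SNc IPs, 354 to 552 in VTA IPs and 1701 to 2122 in SNr IPs, and that of 5 astrocyte markers was 345 to 566, 74.0 to 134 and 1257 to 2168. The SNc IPs were the more mixed of the SNc and VTA IPs by these lists, and SNc IP replicates 2 and 3 were higher in *Gad2* (208 to 350 CPM over the 3) and *Mbp* (530 to 914 CPM) than replicate 1, which bears on every comparison with SNc IPs below. Of 974 pairs of libraries tested within a group, 3 did not differ detectably beyond sampling noise, all among bulk striatal IPs.

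**Figure D1:**
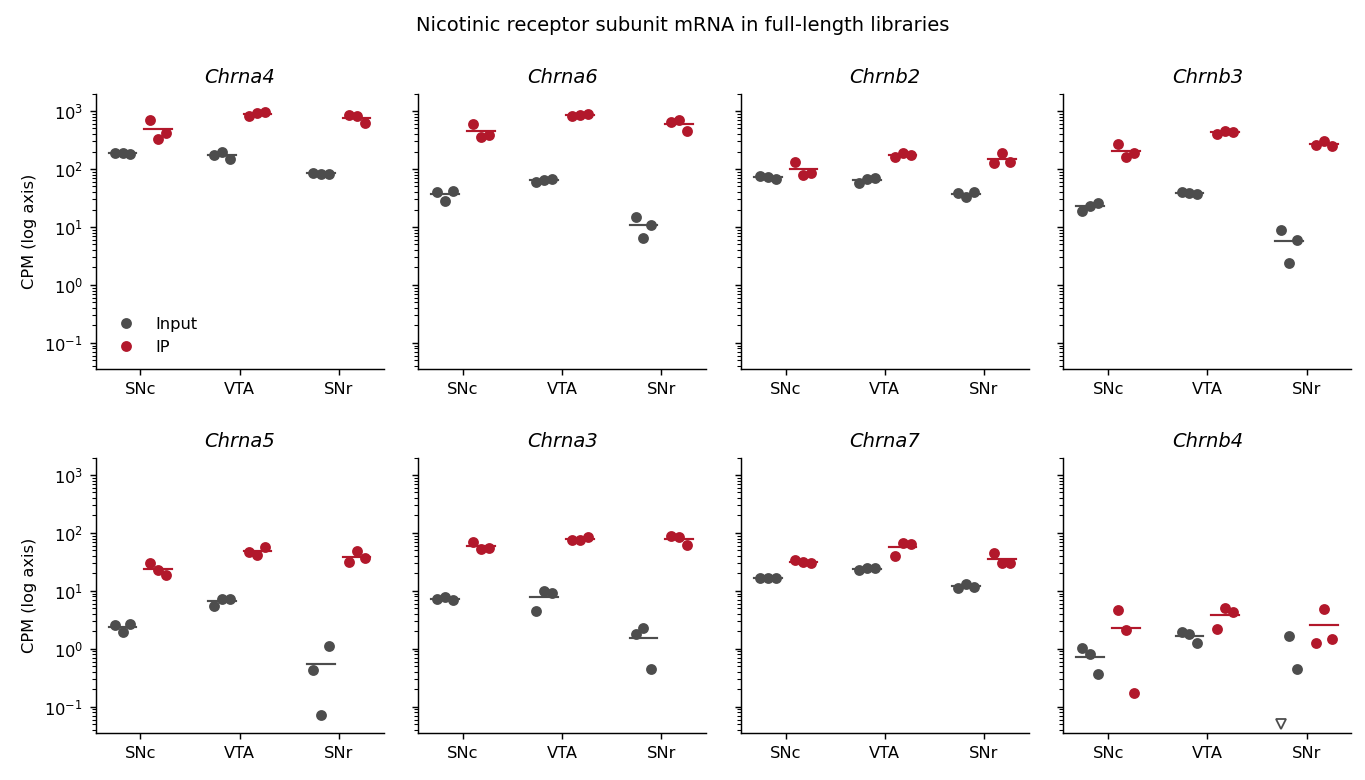
CPM of the 8 subunits in each full-length library on a log axis, by region, with IPs and Inputs apart, 1 point per library and a bar at the mean. An open triangle marks a library with no count, and its group has no bar. *Chrna6* and *Chrnb3* IPs lie above all Inputs in the 3 regions, *Chrnb2* IPs of SNc lie just above its Inputs, and *Chrnb4* stays under 10 CPM.

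Of the α subunits that bind agonist, *Chrna6* was among the most strongly enriched. In SNc it had 606, 362 and 383 CPM in the IPs and 40.1, 28.5 and 41.99 CPM in the Inputs. In VTA the IPs held 828, 863 and 882 CPM and the Inputs 60.2, 65.3 and 67.4 CPM. In SNr the IPs held 646, 692 and 459.9 CPM and the Inputs 15.0, 6.45 and 10.7 CPM. IPs and Inputs did not overlap in any region. The log2 fold change of IP over Input for *Chrna6* was 3.31 ± 0.23 (SE, adjusted p = 1.7e-06) in SNc, 3.38 ± 0.08 (adjusted p = 6.92e-14) in VTA and 5.45 ± 0.30 (adjusted p = 1.5e-06) in SNr, in edgeR's quasi-likelihood test with Benjamini-Hochberg adjustment over all genes tested.

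*Chrna4*, the α subunit of the widespread α4β2 receptor, was enriched less. Its SNc IPs held 692, 335 and 423 CPM beside 188, 187 and 182 CPM in the Inputs. In VTA the IPs held 830.0, 909.5 and 959 CPM and the Inputs 177, 195 and 148 CPM, and in SNr the IPs held 869, 819 and 629 CPM and the Inputs 86.6, 83.2 and 81.4 CPM. The groups did not overlap, and SNc IP replicate 1 was the highest of the SNc IPs. The log2 fold change was 1.09 ± 0.22 (SE, adjusted p = 0.00252) in SNc, 2.03 ± 0.09 (adjusted p = 9.53e-11) in VTA and 2.83 ± 0.15 (adjusted p = 1.34e-06) in SNr.

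*Chrna3*, an α subunit better known from autonomic ganglia and the medial habenula, was also enriched in every region. Its IPs held 69.4, 52.0 and 55.8 CPM in SNc, 75.4, 74.1 and 83.5 CPM in VTA and 89.6, 84.2 and 62.0 CPM in SNr. Its Inputs held 6.95 to 7.77 CPM in SNc, 4.58 to 9.98 CPM in VTA and 0.455 to 2.27 CPM in SNr. The log2 fold changes of *Chrna3* were 2.73 ± 0.21, 2.81 ± 0.19 and 5.13 ± 0.38 (SE, adjusted p = 3.12e-06, 8.04e-09 and 7.99e-06) in SNc, VTA and SNr.

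*Chrna7*, whose product forms homomeric, calcium-permeable receptors, was the least enriched α subunit. The IPs held 34.2, 31.5 and 30.6 CPM in SNc beside 16.4, 16.8 and 16.7 CPM in the Inputs, and 40.2, 68.0 and 65.3 CPM in VTA beside 22.9, 25.1 and 24.5 CPM. In SNr they held 44.4, 29.7 and 30.6 CPM beside 11.2, 13.1 and 11.8 CPM. The IPs lay above the Inputs in every region, by log2 fold changes of 0.64 ± 0.19 (SE, adjusted p = 0.0166) in SNc, 0.89 ± 0.18 (adjusted p = 0.000724) in VTA and 1.16 ± 0.27 (adjusted p = 0.00914) in SNr. The call in SNc was lost without any 1 of the 3 SNc Inputs (adjusted p = 0.0745 to 0.083), and that in SNr without Input replicate 1 (adjusted p = 0.0635) or 3 (adjusted p = 0.0587).

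Among the β subunits that complete a binding site, *Chrnb2* differed between regions. In SNc its IPs held 134, 80.1 and 83.7 CPM and its Inputs 76.1, 73.5 and 66.8 CPM, a log2 fold change of 0.16 ± 0.20 (SE, adjusted p = 0.56). In VTA the IPs held 162, 192 and 173 CPM and the Inputs 57.2, 66.8 and 69.3 CPM. In SNr the IPs held 126, 187 and 130.2 CPM and the Inputs 38.2, 32.6 and 39.4 CPM. The log2 fold change was 1.08 ± 0.10 (adjusted p = 4.24e-07) in VTA and 1.64 ± 0.19 (adjusted p = 0.000126) in SNr. The SNc value for *Chrnb2* turned to -0.16 (adjusted p = 0.294) without IP replicate 1, and was 0.63 without IP replicates 2 and 3, from the 1 SNc IP left. *Chrnb4*, the partner of α3 in ganglionic receptors, had 0.172 to 5.07 CPM in IPs and 0 to 1.961 CPM in Inputs, passed the filter on low counts only in VTA, and was not called there (log2 fold change 0.88 ± 0.58, adjusted p = 0.23).

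Of the accessory subunits, *Chrnb3* behaved much like *Chrna6*. It had 268, 164 and 189 CPM in SNc IPs beside 19.1, 22.7 and 26.4 CPM in Inputs, and 405, 458 and 441 CPM in VTA IPs beside 40.2, 39.03 and 37.1 CPM. In SNr the IPs held 258, 305 and 245 CPM and the Inputs 8.89, 2.42 and 5.92 CPM. No IP overlapped an Input, and the log2 fold changes of *Chrnb3* were 2.89 ± 0.21, 3.15 ± 0.09 and 5.21 ± 0.36 (SE, adjusted p = 2.73e-06, 3.17e-13 and 5.71e-06) in SNc, VTA and SNr. *Chrna5*, which alters calcium permeability and desensitization of α4β2 receptors, held 30.4, 22.5 and 18.4 CPM in SNc IPs, 47.7, 42.2 and 57.1 CPM in VTA IPs and 31.01, 48.1 and 36.6 CPM in SNr IPs. Its Inputs held 1.94 to 2.69 CPM in SNc, 5.56 to 7.19 CPM in VTA and 0.0733 to 1.14 CPM in SNr, the last from 5, 1 and 5 counts. The log2 fold changes of *Chrna5* were 2.99 ± 0.32, 2.50 ± 0.20 and 6.12 ± 0.63 (SE, adjusted p = 2.61e-05, 4.02e-08 and 5.88e-05), the SNr value resting on those low Inputs.

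Counted over the family, 6 of the 7 members tested were higher in the IP in SNc, where 19.6% of all 14883 genes tested were called higher. The counts were 7 of 8 in VTA, where 23.5% of 14742 genes were called higher, and 7 of 7 in SNr, where 16% of 13790 genes were. No member was lower. In SNr *Chrna3* and *Chrna5* passed the filter on low counts through their IPs alone, so that their Inputs had to be lower and the count of 7 is a description. The median log2 fold change over the members tested was 2.73 in SNc, 2.27 in VTA and 5.13 in SNr, beside 0.02, -0.01 and 0.02 over all genes tested. Fewer cells of a type and less RNA per cell cannot be told apart in these bulk samples.

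**Figure D2:**
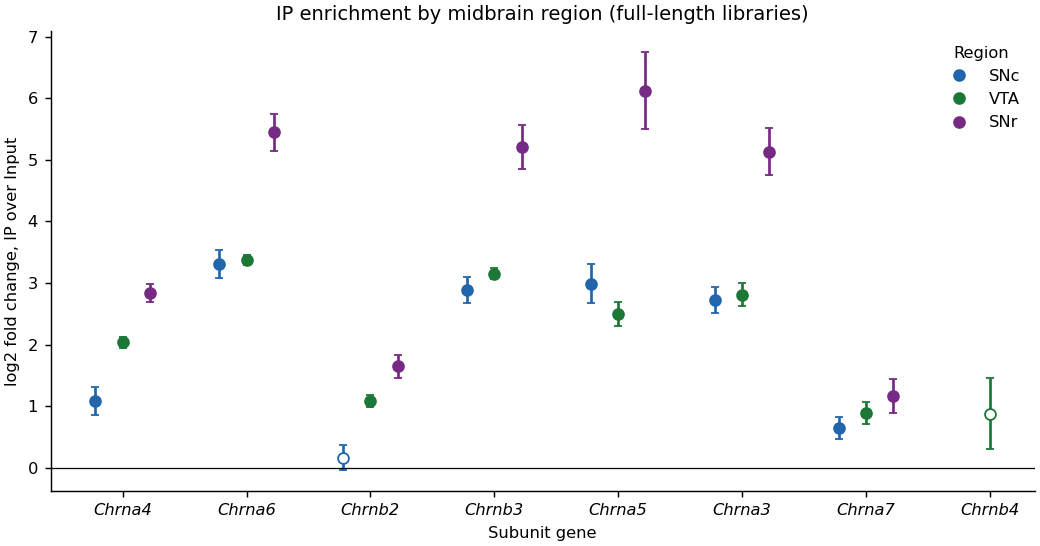
Log2 fold change of IP over Input for each subunit in SNc, VTA and SNr, with bars of 1 SE from edgeR's quasi-likelihood fit on 3 IPs and 3 Inputs per region, and open circles where the change was not called. *Chrna5*, *Chrna6*, *Chrnb3* and *Chrna3* lie between 2.50 and 6.12, *Chrna7* and *Chrnb2* lie between 0.16 and 1.64, and the SNr value is the highest for every member tested there.

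To compare the members with one another, levels were divided by exon length (RPKM). In the IPs *Chrna6* had the highest level, with 155 ± 46.5 RPKM (SD, n = 3) in SNc, 295 ± 9.45 in VTA and 206 ± 42.2 in SNr. *Chrna4* followed with 96.2 ± 37.05, 179 ± 12.99 and 154 ± 25.2 RPKM. The 2 overlapped in SNc and SNr, and *Chrna4* was lower in all VTA libraries. *Chrnb3* was next (32.5 ± 8.54, 68.3 ± 4.27 and 42.3 ± 4.98 RPKM), followed by *Chrnb2* (11.8 ± 3.58, 20.98 ± 1.82 and 17.6 ± 4.09 RPKM), each below the preceding gene in all libraries of a region. *Chrna3*, *Chrna5* and *Chrna7* had mean levels of 7.13 to 15.7 RPKM, with overlaps that changed with the region, *Chrna3* reaching the range of *Chrnb2* in SNc and both it and *Chrna5* in SNr, and *Chrnb4* was last with means of 0.619 to 1.04 RPKM.

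In the Inputs the order was different, since *Chrna4* led in every region with 36.9 ± 0.684 RPKM in SNc, 34.5 ± 4.71 in VTA and 16.7 ± 0.522 in SNr (SD, n = 3). *Chrna6* was below *Chrna4* in all Inputs, with means of 12.7, 22.1 and 3.69 RPKM. The ratio of *Chrna6* to *Chrna4* levels was 1.65, 1.65 and 1.34 in the IPs of SNc, VTA and SNr and 0.34, 0.65 and 0.22 in the Inputs. The ratio of *Chrnb3* to *Chrna6* levels kept to 0.21, 0.23 and 0.21 in the IPs, and that of *Chrnb2* to *Chrna4* was 0.13, 0.12 and 0.12 in the IPs and 0.23, 0.23 and 0.26 in the Inputs. As a share of the summed RPKM of the 8 members, *Chrna6* took 48.2%, 48.6% and 45.1% of the IPs and 18.6%, 27.8% and 12.5% of the Inputs in SNc, VTA and SNr.

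The IPs of VTA and SNc were compared to ask whether the dopamine neurons of these nuclei differ in subunit transcripts. Of 8 members, 6 were higher in VTA IPs, where 3.48% of 15321 genes were called higher. The log2 differences, VTA over SNc, were 1.07 ± 0.18 for *Chrnb3* (SE, adjusted p = 0.000792), 1.04 ± 0.27 for *Chrna5* (adjusted p = 0.0208), 0.93 ± 0.19 for *Chrna6* (adjusted p = 0.00453), 0.89 ± 0.21 for *Chrna4* (adjusted p = 0.0107), 0.84 ± 0.26 for *Chrna7* (adjusted p = 0.0499) and 0.82 ± 0.21 for *Chrnb2* (adjusted p = 0.0205). *Chrna3* did not pass (0.39 ± 0.21, adjusted p = 0.272). Of the 12 dopaminergic core genes 7 were higher too, with a median log2 difference of 0.73, while 5 of 5 GABAergic, 5 of 5 oligodendrocyte and 5 of 5 astrocyte markers were lower in VTA IPs (medians -2.18, -2.55 and -2.22). Without SNc IP replicate 2 or 3 only 2 members were called. Without both, with 1 SNc IP left and its spread taken from the other groups, the log2 differences were 0.68 for *Chrnb3*, 0.67 for *Chrna5*, 0.48 for *Chrna6* and 0.36 for *Chrna4*. Without VTA IP replicate 1, 2 or 3 at least 1 of *Chrna5*, *Chrna7* and *Chrnb2* was not called, while *Chrnb3* and *Chrna6* were called without any 1 IP. The part of other cells' RNA in these differences was not tested.

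A scale that sets each member against the dopaminergic core genes of the same library, added after the data had been seen, gave smaller differences between VTA and SNc IPs. Per 1000 counts of the 12 core genes, *Chrna6* had 34.4 ± 4.62 counts in SNc IPs, 48.9 ± 1.88 in VTA IPs and 46.5 ± 2.85 in SNr IPs (SD, n = 3). *Chrnb3* had 15.8 ± 1.53, 24.7 ± 0.833 and 21.3 ± 3.64 counts. VTA remained above SNc without overlap for *Chrnb3* (1.57-fold), *Chrna5* (1.53-fold), *Chrna6* (1.43-fold), *Chrna4* (1.42-fold) and *Chrnb2* (1.33-fold), each at p = 0.1 in a two-sided exact permutation test, the smallest that 3 against 3 allows. *Chrna3* and *Chrna7* overlapped between VTA and SNc (p = 0.7 and 0.3, exact permutation test). The share of all genes without overlap on this scale was not counted, so that these differences only describe the members.

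On the same scale the members differed in how Inputs stood to IPs. *Chrna6* had 36.4 counts per 1000 core counts in SNc Inputs, 40.3 in VTA Inputs and 32.3 in SNr Inputs, and *Chrnb3* had 22.4, 24.2 and 16.7. *Chrna4* had 184, 108 and 271 counts in the Inputs of SNc, VTA and SNr but 36.5, 51.2 and 60.2 in the IPs. *Chrnb2* had 71.7, 40.4 and 117 in the Inputs and 7.57, 10.0 and 11.7 in the IPs, and *Chrna7* had 16.5, 15.1 and 39.6 in the Inputs and 2.51, 3.28 and 2.74 in the IPs. Set against dopaminergic core RNA, every Input was above every IP of its region for *Chrna4*, *Chrnb2* and *Chrna7*. The share of all genes for which this holds was not counted.

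**Figure D3:**
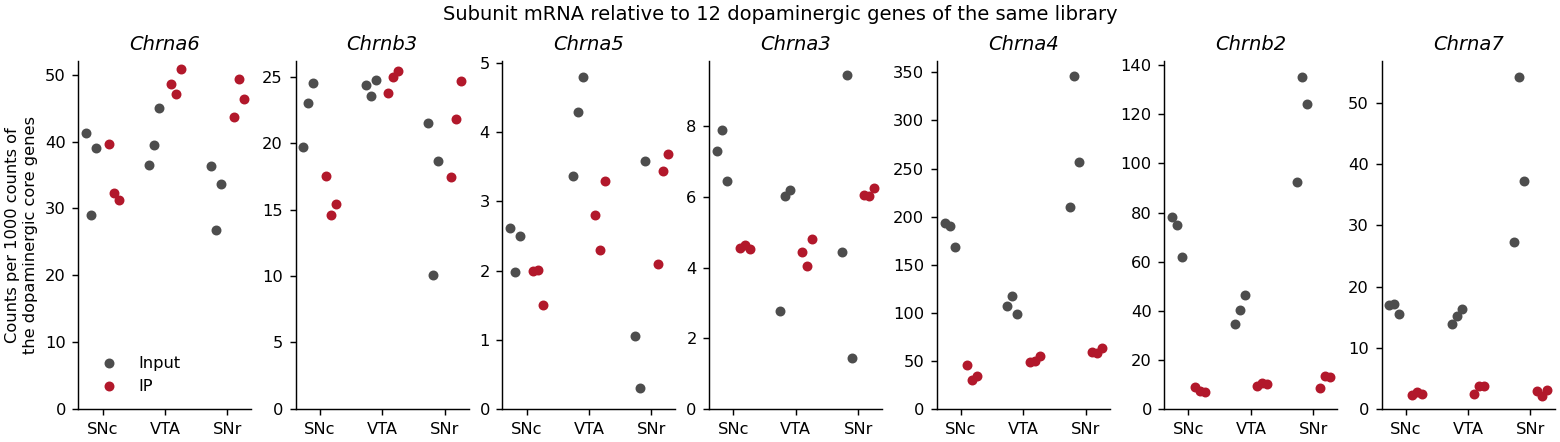
Counts of each subunit per 1000 counts of the 12 dopaminergic core genes in the same full-length library, on linear axes that differ between the 7 genes drawn, by region and fraction, with 1 point per library. *Chrna6*, *Chrnb3*, *Chrna3* and *Chrna5* have IPs and Inputs closer together, while *Chrna4*, *Chrnb2* and *Chrna7* Inputs lie above their IPs.

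SNr IPs were compared with those of SNc and VTA, and ribosomes of dendrites and of dopamine cell bodies within the SNr cannot be told apart in them. No member was called between SNr and SNc IPs, where 5.1% of 15321 genes were called either way. At an unadjusted p under 0.05 were *Chrna4* (log2 difference 0.65 ± 0.21), *Chrnb2* (0.55 ± 0.21) and *Chrna5* (0.67 ± 0.27), 3 of 8 members, where 2875 of 15321 genes were. DESeq2 called 1, *Chrna4* (0.70, adjusted p = 0.013). Without SNc IP replicate 1, 4 members were called in edgeR, among them *Chrna4* (0.99, adjusted p = 0.000823) and *Chrnb2* (0.815, adjusted p = 0.0151), and without SNr IP replicate 3 *Chrna4* was (0.79, adjusted p = 0.0353). From the 1 SNc IP left without replicates 2 and 3 the value for *Chrna4* was 0.10. Against VTA IPs only *Chrnb3* was lower in SNr IPs (-0.71 ± 0.18, adjusted p = 0.0143), where 3.37% of genes were called lower. *Chrna7* (-0.74 ± 0.26, adjusted p = 0.077) and *Chrna6* (-0.54 ± 0.19, adjusted p = 0.0826) were not called, though *Chrna7* was without SNr IP replicate 1 (adjusted p = 0.0374) and *Chrna6* without SNc IP replicate 1 (adjusted p = 0.0106).

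The Inputs show how much of each transcript the dissected tissue held. VTA Inputs were higher than SNc Inputs for 4 of 8 members, where 1.83% of 15849 genes were called higher. The log2 differences were 1.45 ± 0.39 for *Chrna5* (SE, adjusted p = 0.0225), 0.77 ± 0.16 for *Chrna6* (adjusted p = 0.0017), 0.75 ± 0.20 for *Chrnb3* (adjusted p = 0.0214) and 0.53 ± 0.15 for *Chrna7* (adjusted p = 0.0282). *Chrna4* (-0.13 ± 0.08) and *Chrnb2* (-0.17 ± 0.10) were not called. A list of 9 habenular, oculomotor and raphe markers summed to 53.9 to 77.8 CPM in VTA Inputs, 7.49 to 10.4 CPM in SNc Inputs and 9.77 to 17.7 CPM in VTA IPs, and its part in these differences was not tested. One fit over all 18 libraries called none of the members. Leaving out any 1 of the SNc or VTA Inputs lost between 1 and 3 of the calls among *Chrna5*, *Chrnb3* and *Chrna7*, and *Chrna6* was called each time (log2 difference 0.65 to 0.85).

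SNr Inputs were the poorest in nicotinic subunits. They were lower than SNc Inputs for 7 of 8 members, where 14.2% of genes were called lower, and lower than VTA Inputs for 7 of 8, where 13.9% were. *Chrna3* and *Chrna5* passed the filter on low counts through the SNc and VTA Inputs alone. Their SNr Inputs therefore had to be lower, and both counts are descriptions. Against SNc the log2 differences were -2.55 ± 0.54 for *Chrna5*, -2.04 ± 0.34 for *Chrna3*, -2.002 ± 0.24 for *Chrnb3*, -1.80 ± 0.18 for *Chrna6*, -1.13 ± 0.08 for *Chrna4*, -0.98 ± 0.10 for *Chrnb2* and -0.44 ± 0.15 for *Chrna7* (SE, adjusted p = 3.88e-12 to 0.0295). Leaving out any 1 SNc Input, or SNr Input replicate 1 or 3, lost *Chrna7* (adjusted p = 0.0551 to 0.128). Against VTA they ran from -4.00 ± 0.51 for *Chrna5* and -2.75 ± 0.24 for *Chrnb3* to -0.81 ± 0.11 for *Chrnb2*. The summed CPM of the dopaminergic core genes was 241 to 413 in SNr Inputs, 971 to 1076 in SNc Inputs and 1498 to 1657 in VTA Inputs, lower in SNr in every library.

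Whether enrichment itself differed between regions was tested as an interaction over all 18 libraries. SNr exceeded SNc for 6 of 8 members, where 3.31% of 17235 genes were called higher. The differences of log2 enrichment were 3.17 ± 0.58 for *Chrna5*, 2.35 ± 0.40 for *Chrna3*, 2.28 ± 0.36 for *Chrnb3*, 2.11 ± 0.32 for *Chrna6*, 1.71 ± 0.27 for *Chrna4* and 1.45 ± 0.26 for *Chrnb2* (SE, adjusted p = 0.000262 to 0.00138). All 6 were called when any 1 library was left out. From the 1 SNc IP left without replicates 2 and 3 their values were 0.95 to 2.75. SNr exceeded VTA for 4 of 8 members, where 4.33% of genes were called higher, with 3.62 ± 0.56 for *Chrna5*, 2.20 ± 0.40 for *Chrna3*, 1.998 ± 0.32 for *Chrna6* and 2.003 ± 0.35 for *Chrnb3* (adjusted p = 0.000291 to 0.00113). *Chrna4* was not called (0.74 ± 0.26, adjusted p = 0.105), and was without SNc IP replicate 1 or 2 or without SNr IP replicate 3 (adjusted p = 0.00956 to 0.0453), in DESeq2 (adjusted p = 0.0294) and without the filter on low counts (adjusted p = 0.0061). The SNr Inputs of all these members were the lowest of the 3 regions, as given above.

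Between VTA and SNc the enrichment of 2 of 8 members differed, *Chrna4* by 0.98 ± 0.26 (SE, adjusted p = 0.024) and *Chrnb2* by 0.96 ± 0.26 (adjusted p = 0.0262), where 1.8% of genes were called higher. Neither call was kept without SNc IP replicate 2 or 3, and from the 1 SNc IP left without both the values were 0.42 and 0.48. *Chrna4* was also lost without VTA IP replicate 3 (adjusted p = 0.0521), and *Chrnb2* without VTA IP replicate 2 (adjusted p = 0.0603) or VTA Input replicate 1 (adjusted p = 0.0526). For *Chrna6* the difference was 0.11 with a 95% interval from -0.49 to 0.71, so that differences within that interval were not excluded. The *Chrna6* difference was -0.04 without SNc IP replicate 2.

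Across the 18 full-length libraries, the profiles of the members were ranked by Pearson correlation of log2 CPM against 17235 genes. The points share fraction and region, so that these correlations describe the libraries and are given with no p. *Chrna6* ran closest to *Th* (r = 0.999) and *Ddc* (r = 0.997), and *Chrnb3* to *Ret* (r = 0.995) and *Th* (r = 0.994). *Chrna5* ran closest to *Chrnb3* (r = 0.982) and *Ret* (r = 0.98). *Chrna4* ran closest to *Sv2c* (r = 0.991), a synaptic vesicle protein gene, and *Dnajc6* (r = 0.986), which encodes the clathrin uncoating factor auxilin. The first genes were *Cpne7* and *Clstn2* for *Chrna3* (r = 0.979 and 0.976), *Syt13* and *Tcf25* for *Chrnb2* (r = 0.964 and 0.962), *Alg2* and *Vat1l* for *Chrna7* (r = 0.945 and 0.944) and *Dpp7* and *Atg4b* for *Chrnb4* (r = 0.845 and 0.82).

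Among other genes of cholinergic signaling, of 11 listed chaperones and Ly6 modulators of nicotinic receptors 9 were tested in each region. The counts higher and lower in the IP were 2 and 2 in SNc, 4 and 2 in VTA and 2 and 2 in SNr, so that the share higher was near the background given above in SNc and SNr. *Ly6h*, a Ly6 family gene of the brain, was higher by 1.72, 1.49 and 1.49 in log2 fold change in SNc, VTA and SNr. *Lynx1*, a membrane-anchored brake on nicotinic receptors, was lower by -1.06, -1.24 and -1.03. Of 5 muscarinic receptor genes 1 was higher in each region, and 3 were lower in SNc and 2 in VTA and SNr. Beside the counts of each list here, 19.6%, 23.5% and 16% of all genes tested were called higher in SNc, VTA and SNr. Those called lower were 2627 of 14883, 3776 of 14742 and 2023 of 13790 genes. *Chrm5*, known from midbrain dopamine neurons, was higher by 1.59, 2.55 and 4.12, and *Chrm2*, a receptor of cholinergic terminals, was lower by -1.35, -2.35 and -2.58. *Ache*, which breaks acetylcholine down, was higher by 1.14, 1.13 and 1.99 and was the 1 gene called higher among 4 tested of 5 genes for acetylcholine synthesis, storage and breakdown in each region, with 2 lower in VTA. Of 8 remaining nicotinic subunit genes 1 or 2 passed the filter in a region, and only *Chrna2* was called, lower in VTA IPs (-2.64).

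The UMI libraries of the 3 midbrain regions add Cre- IPs as a background. In VTA *Chrna6* had 9, 22, 4 and 22 UMIs in the Cre+ IPs, 3, 2, 2 and 3 in the Cre+ Inputs and 0, 0, 1, 0, 2 and 0 in the Cre- IPs. In SNc the Cre+ IPs held 6, 4, 19 and 10 UMIs, the Cre+ Inputs 0, 0, 2 and 2 and the Cre- IPs 1, 3, 2, 1, 1 and 1. In SNr they held 9, 21, 10 and 11, then 0, 0, 1 and 0, then 1, 0, 0, 0, 1 and 0. Every Cre+ IP held more *Chrna6* UMIs than every Cre+ Input and every Cre- IP of its region. Scaled to depth, the lowest VTA Cre+ IP of *Chrna6* (95.5 CPM) lay just below the highest Cre- IP (101 CPM, from 2 UMIs). *Chrnb3* reached 5, 10, 5 and 8 UMIs in VTA Cre+ IPs beside 2, 1, 0 and 1 in the Inputs and 1 UMI over 6 Cre- IPs. In SNr it had 5, 2, 0 and 6 UMIs in Cre+ IPs and 0 in all 4 Inputs and 6 Cre- IPs. With 3 UMIs per group taken as the floor, the pooled Cre+ IPs were 4.60-fold above the Inputs and 4.199-fold above the Cre- IPs. The counting error of the Cre+ IPs and the spread between libraries are not in these values. *Chrna4* was closer to its background, with 6, 10, 8 and 14 UMIs in VTA Cre+ IPs, 6, 3, 3 and 5 in the Inputs and 0 to 4 in Cre- IPs.

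In the fits on these UMI counts, 4 of the 8 members passed the filter of 10 UMIs in each region. *Chrna6* was higher in Cre+ IP than Input in SNc (log2 fold change 3.57 ± 0.62, adjusted p = 1.41e-06), the 1 call among 4 members, where 2.27% of 11657 genes were called higher. In VTA 3 of 4 were higher, where 3.27% of 10261 genes were, with 3.06 ± 0.49 for *Chrna6* (adjusted p = 3.6e-08), 3.28 ± 0.66 for *Chrnb3* (adjusted p = 4.69e-05) and 1.80 ± 0.47 for *Chrna4* (adjusted p = 0.00427). In SNr 2 of 4 were higher, where 2.74% of 10733 genes were, *Chrna6* (5.15 ± 0.78, adjusted p = 7.51e-09) and *Chrnb3*, and only 1 of these 2 was called without Cre+ IP replicate 1 or 4. Both passed the filter there through the Cre+ IPs alone, so that this count is a description. *Chrnb2*, also tested in each region, was called in no region.

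**Figure D4:**
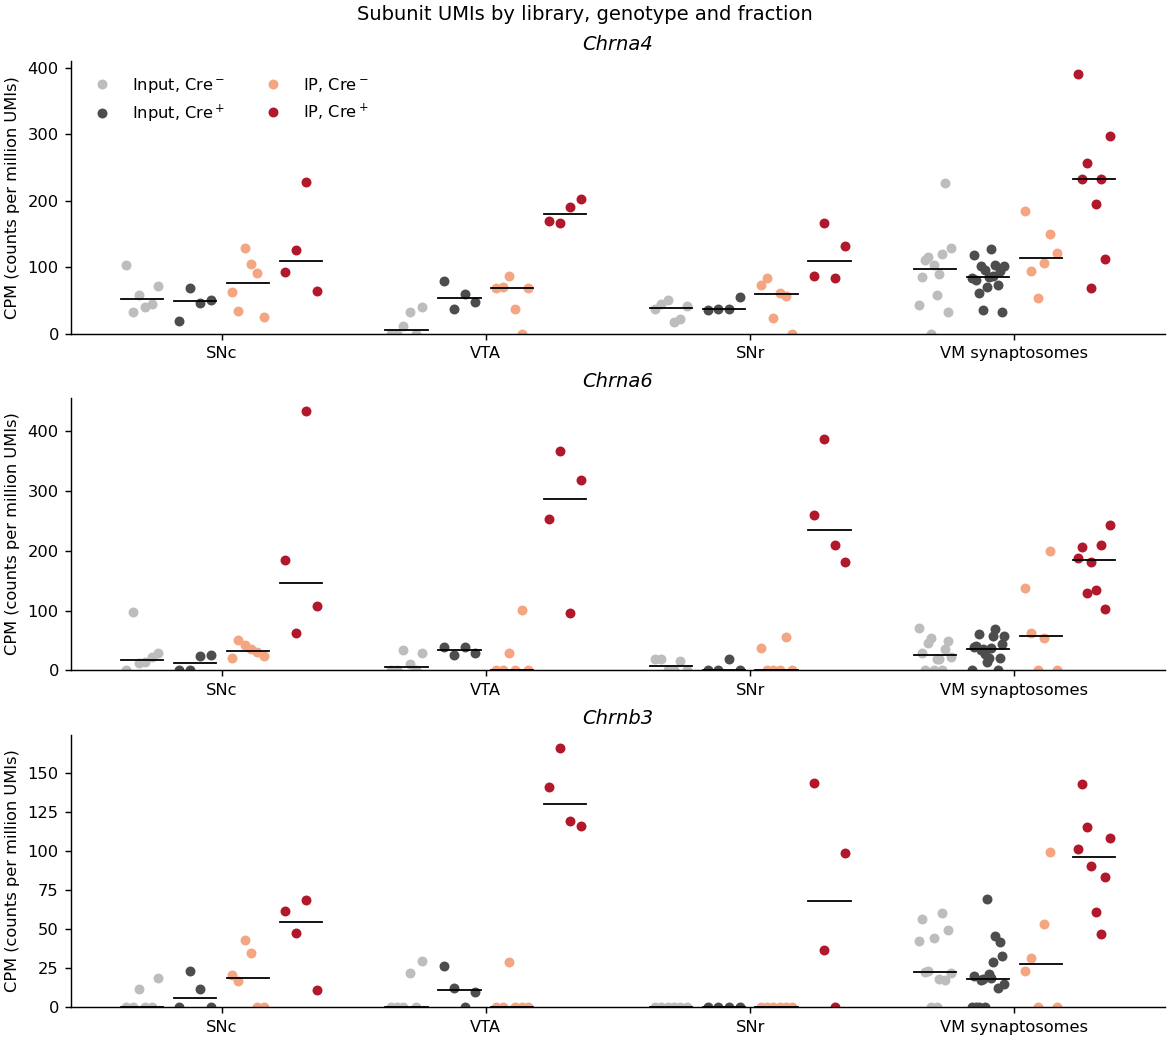
CPM of *Chrna4*, *Chrna6* and *Chrnb3* in each UMI library of SNc, VTA, SNr and ventral midbrain (VM) synaptosomes, with Cre- and Cre+ IPs and Inputs apart, 1 point per library and a bar at each group's median. Cre+ IPs of *Chrna6* lie above Cre+ Inputs throughout, are separate from Cre- IPs in SNc and SNr, and overlap with them in VTA by 1 library and in synaptosomes.

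The term for genotype by fraction asks whether IP over Input was higher in Cre+ than in Cre- mice. In VTA it was called for 2 of 4 members, *Chrna6* (3.60 ± 1.08, adjusted p = 0.0286) and *Chrnb3* (4.63 ± 1.40, adjusted p = 0.0307), where 1.53% of genes were called higher. *Chrna6* was at adjusted p = 0.051 to 0.0575 with TMMwsp scaling, with DESeq2 and without the filter on low counts, where *Chrnb3* was at 0.0508, and was not called without Cre+ IP replicate 2 (adjusted p = 0.0541), as *Chrnb3* was not without Cre+ Input replicate 4 (adjusted p = 0.055). In SNc no member was called (*Chrna6* 2.86 ± 0.93, adjusted p = 0.074), where 2.21% of genes were called either way, and in SNr none was (*Chrna6* 4.64 ± 1.57, adjusted p = 0.0995), where 2.14% were. At an unadjusted p under 0.05 was *Chrna6* alone in both regions, where 1634 of 11657 genes were in SNc and 1368 of 10733 in SNr. DESeq2 called no member. *Chrna6* was called in SNc with TMMwsp scaling (adjusted p = 0.0424) and without Cre+ SNc IP replicate 2 (adjusted p = 0.0414), and without Cre+ SNr Input replicate 3 (adjusted p = 0.0469).

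Over the 3 regions together, without a term for region and with samples that may share animals, Cre+ IPs exceeded Cre- IPs for 3 of 5 members, where 6.04% of 11161 genes were called higher. *Chrna6* was higher by 3.18 ± 0.35 (log2, SE, adjusted p = 2.25e-15), *Chrnb3* by 2.69 ± 0.51 (adjusted p = 8.15e-06, with 6 UMIs over all Cre- IPs) and *Chrna4* by 0.97 ± 0.29 (adjusted p = 0.011). *Chrnb3* passed the filter of 10 UMIs through the Cre+ IPs alone, so that its call is a description. *Chrna3* (1.22 ± 0.62, adjusted p = 0.16) and *Chrnb2* (0.74 ± 0.54, adjusted p = 0.356) were not called. An alternative fit with region as a term also called 3 members. Summed over the 8 members, Cre+ IPs held 374, 649 and 543 CPM in SNc, VTA and SNr, and Cre- IPs held 152, 112 and 83.7.

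In ventral midbrain synaptosomes *Chrna4*, *Chrna6* and *Chrnb3* held the most UMIs in Cre+ IPs. *Chrna6* had 102 to 244 CPM in the 8 Cre+ IPs (median 185), 0 to 68.7 in the 16 Cre+ Inputs (median 36.1) and 0 to 199 in the 6 Cre- IPs (median 58.1). *Chrna4* had 68.0 to 391 in Cre+ IPs (median 233), 32.9 to 128 in Cre+ Inputs (median 85.7) and 53.3 to 184 in Cre- IPs (median 114). *Chrnb3* had 46.6 to 143 in Cre+ IPs (median 96.0), 0 to 69.4 in Cre+ Inputs (median 18.04) and 0 to 99.6 in Cre- IPs (median 27.3). Cre+ IPs of *Chrna6* thus lay above all Cre+ Inputs but overlapped with Cre- IPs.

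Cre+ IP over Input, a contrast added after the data had been seen, was higher for 3 of the 6 members tested, where 6.46% of 12960 genes were called higher. The log2 fold changes were 2.32 ± 0.31 for *Chrna6* (SE, adjusted p = 1.71e-09), 2.02 ± 0.38 for *Chrnb3* (adjusted p = 1.45e-05) and 1.44 ± 0.24 for *Chrna4* (adjusted p = 1.2e-06). *Chrna5* (1.40 ± 0.65), *Chrnb2* (0.93 ± 0.49) and *Chrna3* (0.43 ± 0.62) were not called. The term for genotype by fraction called none of the 6 (edgeR), where 1.03% of genes were called either way, and DESeq2 called none. It had an unadjusted p under 0.05 for 1 of the 6, and for 1353 of 12960 genes. Its values were 0.83 ± 0.64 for *Chrna6* (adjusted p = 0.681), 1.76 ± 0.79 for *Chrnb3* (adjusted p = 0.398) and 0.92 ± 0.46 for *Chrna4* (adjusted p = 0.478). The Cre- IPs of this preparation held *Th* at a median of 2935 CPM beside 2889 in Cre+ IPs, and the Cre- IPs were shallower, with 16533 to 43351 UMIs beside 36968 to 111750. Whether that background lowered the term was not tested.

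Striatal preparations, which hold dopamine axons but not the cell bodies, gave few UMIs of these genes. Striatal synaptosomes held 8 UMIs of the 8 members over 4 Cre- IPs, 5 over 4 Cre+ IPs, and 8 and 13 over 12 Inputs each. Pooled, these are 57.4, 56.8, 46.2 and 62.9 CPM. *Chrna4* and *Chrna6* were the only members tested, and neither was called for genotype by fraction, where 0.114% of 7002 genes were. With edgeR 0 of the 2 had an unadjusted p under 0.05, where 449 of 7002 genes did, and DESeq2 called none.

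Over all bulk striatal samples, with 20489671 UMIs, *Chrnb2* had 372 UMIs, *Chrna4* 316, *Chrna7* 71, *Chrna3* 39, *Chrna6* 20, *Chrna5* 19, *Chrnb3* 13 and *Chrnb4* 5. Pooled by fraction and genotype, *Chrna4* had 27.5 CPM in Cre- IPs, 28.97 in Cre+ IPs, 12.7 in Cre- Inputs and 11.04 in Cre+ Inputs. *Chrna6* had 7 UMIs in Cre- IPs (3.44 CPM) and 4 in Cre+ IPs (1.70 CPM), and *Chrnb3* had 3 in Cre- IPs and 0 of 2347475 UMIs in Cre+ IPs, so that neither gene was seen in excess in Cre+ striatal IPs. IPs of both genotypes together were higher than Inputs for 4 of 7 members, where 24.8% of 19334 genes were called higher, with 1.66 ± 0.32 for *Chrna3*, 1.54 ± 0.34 for *Chrna6*, 1.18 ± 0.20 for *Chrna4* and 1.09 ± 0.34 for *Chrna5* (log2, SE). *Chrna5* (adjusted p = 0.0498) was not called without any 1 of 8 samples, and plate BH001 alone called 1 member. The term for genotype by fraction called no member and no gene in edgeR, where 897 of 19334 genes and none of the 7 members had an unadjusted p under 0.05, and DESeq2 called none of the members.

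Age was called for 4 of 7 members in striatum, where 59% of genes were called either way, so that the share is near the background. *Chrna6* (adjusted p = 0.0484) was not called without any 1 of 8 samples or in DESeq2. DESeq2 did not call *Chrna7* either (log2 fold change 1.03, adjusted p = 0.628). As P90 over P0, *Chrna7* had a log2 fold change of 1.86 and *Chrna6* of 1.64, and *Chrna4* had -1.45 and *Chrnb2* -0.75, with no SE since the test was over all ages. These ages lay mostly on different plates. On plate BH001, which holds P0 to P21, *Chrna4* Inputs held 7.66 CPM at P0, 21.5 at P7, 20.4 at P14 and 23.9 at P21. The test by age there called 2 of 7 members, a count for which the 59% over all plates is not the background.

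Fluorescence-sorted synaptosomes held 1 UMI of *Chrnb2* and 1 of *Chrna7* in 296300 UMIs, and none of the other 6 members, which allows a level of up to 10.1 CPM for each of those. The small particles held 33 UMIs of *Chrnb2*, 9 of *Chrna7* and 8 of *Chrna4* in 1679014 UMIs. *Chrnb2* was lower in the sorted samples by a log2 fold change of -2.33 ± 0.85 (SE, adjusted p = 0.0335), 1 of 2 members tested, where 23.4% of 11001 genes were called lower. It passed the filter through the small particles alone, so that the call is a description. With the preparation as a block the value was -2.20 (adjusted p = 0.0551), and it was not called either by DESeq2 (-1.31, adjusted p = 0.121), without the filter on low counts, without any 1 of 3 sorted samples, or without 1 of the small particle samples.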

How the data were processed

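Counts per gene were analysed as deposited, from 18 full-length and 376 UMI libraries (394 in all). For the full-length counts the authors trimmed 15 bases of read 2, depleted rRNA reads (Bowtie2), mapped the remainder on GRCm38.p6 (STAR 2.6.7a) and had featureCounts 1.6 count unique exon reads. For the UMI counts the authors trimmed poly(A), aligned with STAR to GRCm38 and collapsed UMIs at a Hamming distance of 1. Coordinates, lengths and sequences came from a GENCODE release on GRCm38 that the authors did not use. Wells that repeat 1 striatal sample and technical repeats of small particles were summed.

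Members and gene lists were chosen with earlier results of these data known. Named genes are all 8 members, up to 3 genes of smallest p per list and the 2 best correlates per member. Tests used the quasi-likelihood fit of edgeR, called at 0.05 after adjusting over all genes by Benjamini and Hochberg, with filterByExpr and TMM for full-length counts, and at least 10 UMIs and DESeq2 size factors for UMI counts. Age was tested over all ages. SE = |log2 fold change|/√F, for tests of 1 coefficient. Correlations used log2 CPM with a prior count of 2. Floors (3 counts) cover counting error only, and the interval of a difference comes from its SE. The scripts were tested on simulated data. Alternatives were DESeq2's test, other scaling, no filter, 1 fit over all 18 libraries, plate BH001 alone, unsummed wells and single libraries left out. Another was region as a term for Cre+ over Cre- midbrain IPs. Omitting SNc IPs or small libraries, summing close pairs and the counts per core gene were added after the data had been seen. Sorted and small particle samples share 12 numbered preparations, and 1 of the 12 pairs had deviations correlated over 0.1 (median r = 0.013). Versions were edgeR 4.0.16, DESeq2 1.42.0 and limma 3.58.1 under R 4.3.3, and pandas 2.3.3, numpy 2.4.6 and scipy 1.17.1 under Python 3.11.15.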

Additional observations from a re-analysis of the deposited data

Results flagged for a closer look

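Enrichment in the IP differed between regions for several subunits, as tested by interaction terms in edgeR over the 18 full-length libraries. The SNr exceeded the SNc by 3.17 for *Chrna5*, 2.35 for *Chrna3*, 2.28 for *Chrnb3*, 2.11 for *Chrna6*, 1.71 for *Chrna4* and 1.45 for *Chrnb2* in log2 enrichment, and the VTA by 3.62 for *Chrna5*, 2.20 for *Chrna3*, 1.998 for *Chrna6* and 2.003 for *Chrnb3*. The VTA exceeded the SNc by 0.98 for *Chrna4* and 0.96 for *Chrnb2*. The SNr Inputs of these members and of the dopaminergic core genes were the lowest of the 3 regions, and the VTA and SNc calls were lost without SNc IP replicate 2 or 3.

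In 6 of 95 pairs of a member and a group, 1 UMI library stood apart from the others of its group. Chance alone marks about 1 in 20 groups of normally distributed values, and the rate for UMI counts this low was not established. *Chrna4* was at 54.4 CPM in Cre+ SNr Input replicate 4 (4 UMIs, next 37.6) and at 52.8 in Cre- P14 striatal Input replicate 3 on plate BH001 (12 UMIs, next 12.99). *Chrna5* was at 25.7 in Cre+ midbrain synaptosome IP replicate 3, from 2 UMIs, and *Chrna6* at 96.9 in Cre- SNc Input replicate 2, from 3 UMIs. *Chrnb2* was at 0 in Cre- P7 striatal Input replicate 2 on plate BH001 (next 15.7) and at 0 in Cre+ striatal Input replicate 4 at 10 to 14 months (next 11.99).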

How the results depend on the processing

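IP over Input in the full-length libraries held for 5 to 8 members in SNc, 7 in VTA and 6 or 7 in SNr over all alternatives, in the same direction apart from *Chrnb2* in SNc (-0.163 to 0.313 with 1 library left out). Leaving out 1 library gave 5 to 6, 7 and 6 to 7 calls there, 2 to 6 for VTA over SNc IPs, 0 to 4 for SNr over SNc IPs, 1 to 2 for SNr below VTA IPs, 1 to 4, 6 to 7 and 7 to 8 for the Inputs of VTA over SNc, SNr below SNc and SNr below VTA, and 0 to 2, 6 and 4 to 5 for the enrichment differences of VTA over SNc, SNr over SNc and SNr over VTA. Among UMI libraries it gave 1 (SNc), 3 (VTA) and 1 to 2 (SNr) for Cre+ IP over Input, 0 to 1, 1 to 2 and 0 to 1 for genotype by fraction, 0 in striatal synaptosomes, 0 to 1 in sorted synaptosomes, and 3 to 4, 3 to 4 and 0 for age, fraction and genotype by fraction in striatum.

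DESeq2, the absence of a filter and 1 fit over all 18 libraries each called 1 member between SNr and SNc IPs and 2 between SNr and VTA IPs. Between VTA and SNc Inputs DESeq2 called 1 and the single fit 0. Without SNc IP replicates 2 and 3, where the 1 SNc IP left is assumed to vary like the other groups and few calls can be made, the VTA and SNc calls fell to 0 for IPs and for enrichment, whose difference turned to -0.361 for *Chrna6* and -0.138 for *Chrnb3*, and *Chrna6* was at -0.044 to 0.435 with 1 library left out. With TMMwsp 1 member was called for genotype by fraction in SNc and 1 in VTA, where DESeq2 (with no adjusted p for 2 members) and the absence of a filter called 0. In striatum DESeq2 called 2 members for age and 2 for fraction, and plate BH001 alone 2 and 1. In sorted synaptosomes DESeq2, the absence of a filter and the preparation as a replicate block each called 0 (*Chrnb2* at -2.204, adjusted p = 0.0551, with the block), and no other comparison could be blocked, since the labels do not say which IP and Input share an animal. The causes were not tested.

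TMMwsp moved the median log2 fold change of all genes from -0.286 to -0.001 for Cre+ over Cre- midbrain IPs (674 genes higher and 1392 lower, then 1148 and 748), from 0.121 to -0.238 for the striatal fraction (4804 and 2202, then 2230 and 5697), and from 0.055 to -0.144 for VTA IP over Input (336 and 362, then 149 and 392). For genotype by fraction it went from -0.316 to -0.027 in SNc (129 and 129, then 194 and 53), from -0.167 to 0.249 in SNr (91 and 139, then 187 and 54) and from 0.087 to 0.32 in midbrain synaptosomes (48 and 86, then 109 and 46). Each member's value moved with its comparison's median and no reported member changed sign. The part of UMI depth in these shifts was not tested. Of 376 recounts of called members 330 stayed within 1.5 times the main count.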
